A study of Mus musculus with 6 samples.

Results

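The genes described here are the mouse platelet-derived growth factor (PDGF) receptors Pdgfra and Pdgfrb and the ligands Pdgfa, Pdgfb, Pdgfc and Pdgfd, taken by symbol as 6 of the 31053 genes in the files. PDGF ligands act as dimers that bring together a pair of receptor tyrosine kinases, PDGFRα and PDGFRβ, which then phosphorylate each other and bind adapter and effector proteins. PDGF-A binds PDGFRα, PDGF-B binds both receptors, and PDGF-C and PDGF-D are secreted as latent forms that proteases must cleave before they bind. In the vessel wall PDGF-B from endothelial cells recruits and holds pericytes through PDGFRβ, and PDGFRα is a standard marker of fibroblasts. The annotation places Pdgfra on chromosome 5 (mm10, 75152292 to 75198215, plus strand, ENSMUSG00000029231) and Pdgfa on the same chromosome (138976014 to 138997370, minus strand, ENSMUSG00000025856). Pdgfb lies on chromosome 15 (79995874 to 80014977, minus strand, ENSMUSG00000000489), Pdgfc on chromosome 3 (81036416 to 81214040, plus strand, ENSMUSG00000028019) and Pdgfd on chromosome 9 (6168584 to 6378850, plus strand, ENSMUSG00000032006). Pdgfrb (ENSMUSG00000024620) lies on chromosome 18.

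The study sequenced single cells sorted for the red fluorescent protein tdTomato (tdT) from mice of genotype Tbx18CreER/+;Rosa26tdT/+, in 6 libraries of 10x 3' version 3 chemistry. All groups received intraperitoneal tamoxifen on 4 days and a washout of a week, so that tdT marks cells in which the Tbx18 promoter, active in mural and epicardium-derived cells, drove Cre at that time, and their descendants. The heart groups are ventricles after sham surgery, the infarct after ligation of the left anterior descending artery (LAD), and the peri-infarct tissue. The brain groups are cortex after sham surgery, the infarct after a photothrombotic stroke, and the peri-infarct tissue. The labels used here do not give the number, age or sex of the mice or the time after injury. Each group is 1 library, so no test across samples is possible, and every interval below is a 95% interval for counting error only.

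The libraries differed in depth. Kept cells numbered from 2071 in brain infarct to 13630 in heart sham, and the median number of unique molecular identifiers (UMIs, the count of distinct transcripts) per kept cell ranged from 1408 in heart sham to 26159 in brain infarct. The heart sham library stood apart by its low depth and by transcripts of other classes within a class: in its pericytes the 12 fibroblast markers summed to 2708 CPM (UMIs of a gene or list per 1000000 UMIs of the class), against 789 and 687 in the pericytes of the heart infarct and peri-infarct libraries. Between 1.03% (heart sham) and 9.35% (brain peri-infarct) of a library's barcodes were also found in another library, and why was not tested. Values without the shared barcodes are given where a call between libraries of 1 organ changed. Each heart injury ratio rests on the heart sham library, so the ratio of infarct to peri-infarct, which does not use it, is given as well.

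Cells were assigned to a class by the summed level of marker genes, none of which is a PDGF gene, and a cell that passed the gates of more than 1 class was left out. Groups of 3 values below give sham first, then infarct, then peri-infarct. The pericyte gate held 145, 908 and 522 heart cells and 1437, 407 and 1039 brain cells. The smooth muscle gate held 2028, 278 and 279 heart cells and 126, 2 and 78 brain cells. The fibroblast gate held 5912, 5406 and 4688 heart cells and 301, 982 and 398 brain cells, and the endothelial gate 396, 241 and 1122 heart cells and 301, 88 and 304 brain cells. The macrophage gate held 3, 219 and 133 heart cells and 37, 127 and 48 brain cells. Endothelial cells and macrophages are not among the cells named above as those in which the Tbx18 promoter is active. How they entered the sort was not tested, and their values may not stand for those classes in the tissue. A class with fewer than 50 cells in a library gave no ratio, which left 26 class sums. In a comparison of 2 sums a gene counts as tested when its mean level is at least 50 CPM, and as changed when its CPM plus 1 differs at least 2-fold. Each class carried more of its own markers than of those of any other class. Pericyte markers summed to 41375 to 48412 CPM in brain pericytes and 20773 to 22837 CPM in heart pericytes. Endothelial markers summed to 314 to 1861 CPM in pericyte and smooth muscle cells together. The margin was narrower in smooth muscle cells, with 10573 to 13044 CPM of their own markers beside 3158 to 3856 CPM of pericyte markers. In heart sham they also carried 3918 CPM of fibroblast markers. The part of pericyte transcripts in the smooth muscle values was not tested. Fibroblast-gated brain cells also carried arachnoid barrier markers, summing to 1054, 342 and 1114 CPM, and that mixture is described with Pdgfra. Between 15.2% and 37.8% of kept cells were ungated.

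**Figure D1:**
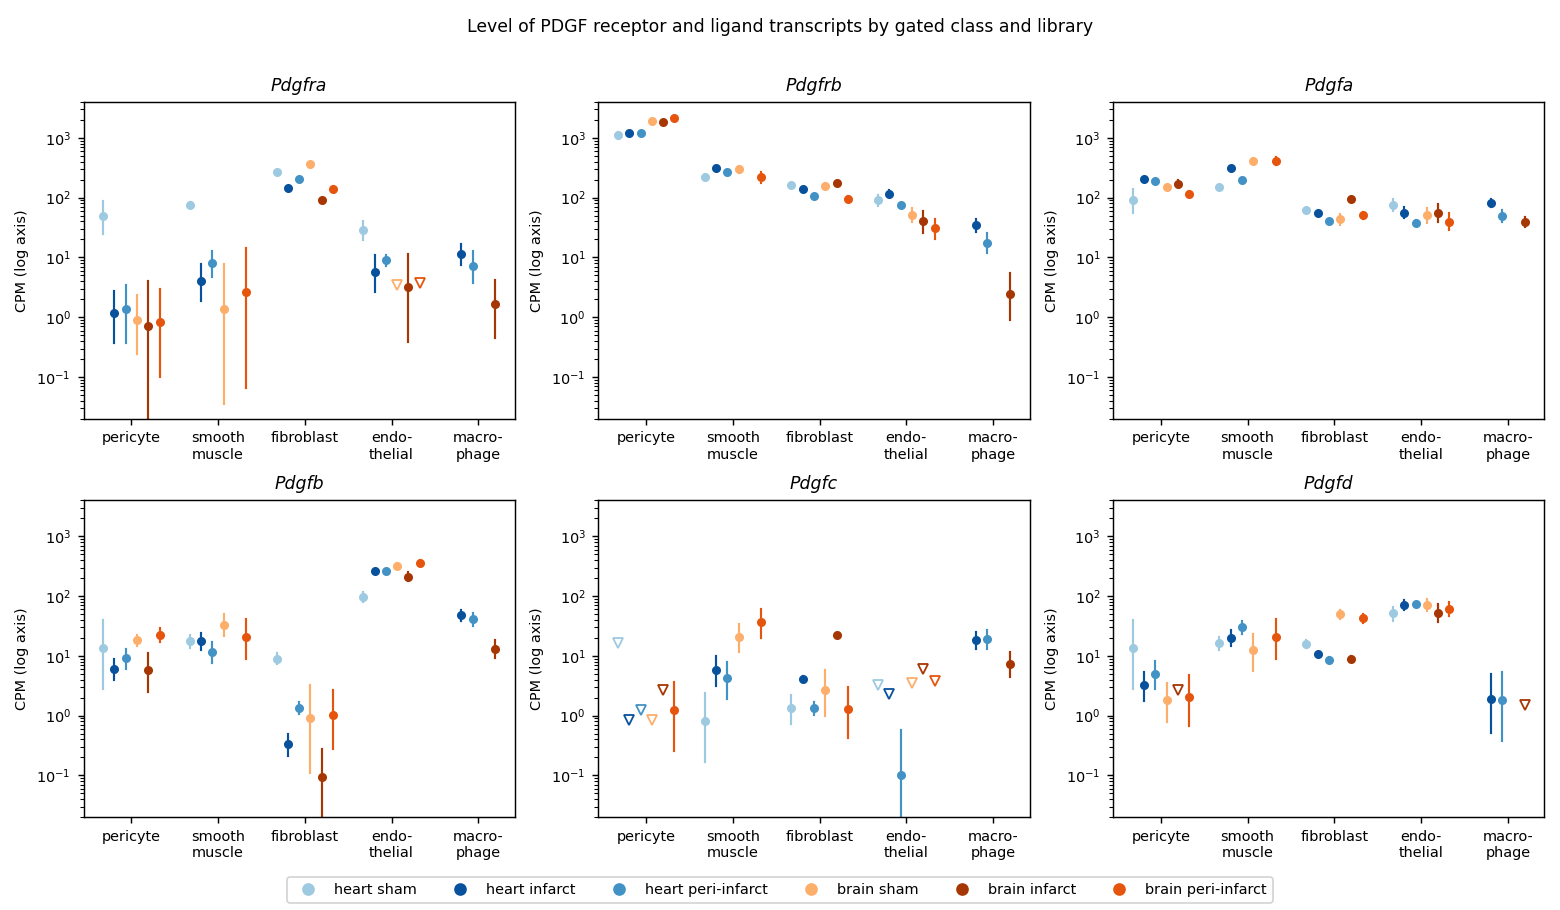
Level of each PDGF gene (CPM, log axis) in the 5 gated classes of each library. Points are class sums, lines exact 95% Poisson intervals, open triangles the upper limit of sums with 0 UMIs, and classes with fewer than 50 cells are left out; Pdgfrb is highest in the 6 pericyte sums (1098 to 2125 CPM), Pdgfra in the 6 fibroblast sums (90.0 to 367 CPM) and Pdgfb in the 6 endothelial sums (96.1 to 361 CPM).

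Pdgfrb, the receptor through which mural cells respond to PDGF-B, was highest in pericytes in each of the 6 libraries. Its level was 1098 CPM in pericytes of heart sham, 1225 CPM in heart infarct and 1207 CPM in heart peri-infarct. In brain pericytes it was 1908 CPM in sham and 1844 CPM in infarct, and reached 2125 CPM in peri-infarct. All 3 brain values lay above all 3 heart values, and the intervals of brain sham and brain infarct overlapped, as did those of neighbouring heart libraries. Smooth muscle cells held 220, 317 and 272 CPM in heart sham, infarct and peri-infarct, and 301 and 220 CPM in brain sham and peri-infarct. Pericytes exceeded smooth muscle cells of the same library at least 2-fold in 5 of 5 libraries, by log2 1.95 in heart infarct to 3.27 in brain peri-infarct. Over all genes tested in that comparison 18.1%, 15.3% and 20.5% differed at least 2-fold in heart sham, infarct and peri-infarct, and 30.7% and 35.4% in brain sham and peri-infarct.

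Fibroblasts carried less Pdgfrb than pericytes in all 6 libraries, by log2 -2.75 in heart sham to -4.46 in brain peri-infarct. At least 2-fold differences between fibroblasts and pericytes were found for 20.2%, 19.6% and 20.3% of all tested genes in the heart libraries and 29.1%, 41.2% and 38.7% in the brain libraries. Endothelial cells held 76.1 to 117 CPM in the heart and 30.7 to 51.5 CPM in the brain, and macrophages 34.5 and 17.7 CPM in heart infarct and peri-infarct and 2.48 CPM in brain infarct. After thinning every cell to 1000 UMIs, a Pdgfrb UMI was found in 61.2% of heart sham pericytes, 72.5% in heart infarct, 70.8% in heart peri-infarct and 81.9%, 81.7% and 85.1% in the brain libraries. Heart infarct macrophages, a class that should lack the gene, had a share of 2.29% of 218 cells. Without thinning the share was 98.0% in heart infarct pericytes, at a median of 3919.5 UMIs, and 8.22% in those macrophages, at 8566 UMIs.

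Pericyte Pdgfrb stayed within 2-fold of sham after injury in both organs. The log2 ratio to sham was 0.16 in heart infarct (fold interval 0.981 to 1.27), 0.14 in heart peri-infarct (0.965 to 1.26), -0.05 in brain infarct (0.924 to 1.01) and 0.16 in brain peri-infarct (1.08 to 1.15). The heart values depended on how the 145 sham pericytes were counted: the mean of per-cell CPM gave 0.60 and 0.62, and a gate at double the marker level gave -0.13 and -0.22, none of them past 2-fold. In smooth muscle cells the ratio was 0.52 in heart infarct, 0.30 in heart peri-infarct and -0.45 in brain peri-infarct, and the cells of heart peri-infarct also carried 4533 CPM of cardiomyocyte markers, whose part in the value was not tested. In heart fibroblasts Pdgfrb was 163, 138 and 108.4 CPM, log2 ratios of -0.24 and -0.58, beside 1908, 335 and 361 CPM of pericyte markers, whose part was not tested. In heart endothelial cells the ratios were 0.38 and -0.24, but -1.10 and -1.55 as a mean of per-cell CPM, where the direction in infarct turned. Between the injury libraries alone, Pdgfrb in heart fibroblasts of infarct was 1.23 to 1.32 times that of peri-infarct.

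The share of all Pdgfrb UMIs that came from pericytes differed widely between libraries, as did the share of cells in the pericyte gate, from 1.06% in heart sham to 54.3% in brain sham. It was 82.1% in brain sham and 77.1% in brain peri-infarct, but 24.2% in brain infarct, where fibroblasts held 53.2%. In the heart, pericytes held 5.04% of Pdgfrb UMIs in sham and 24.0% in both injury libraries, and fibroblasts 35.3%, 44.8% and 40.6%. The sort for tdT set which cells entered. Per gated cell, brain pericytes held 5.89 Pdgfrb UMIs in sham and 6.31 in infarct, and brain fibroblasts 1.15 and 5.74. These counts are not scaled for depth, with medians of 2749 and 2942 UMIs in the pericytes and 5898 and 31183.5 in the fibroblasts. Scaled to CPM, fibroblast Pdgfrb was 155 in brain sham and 178 in brain infarct.

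**Figure D2:**
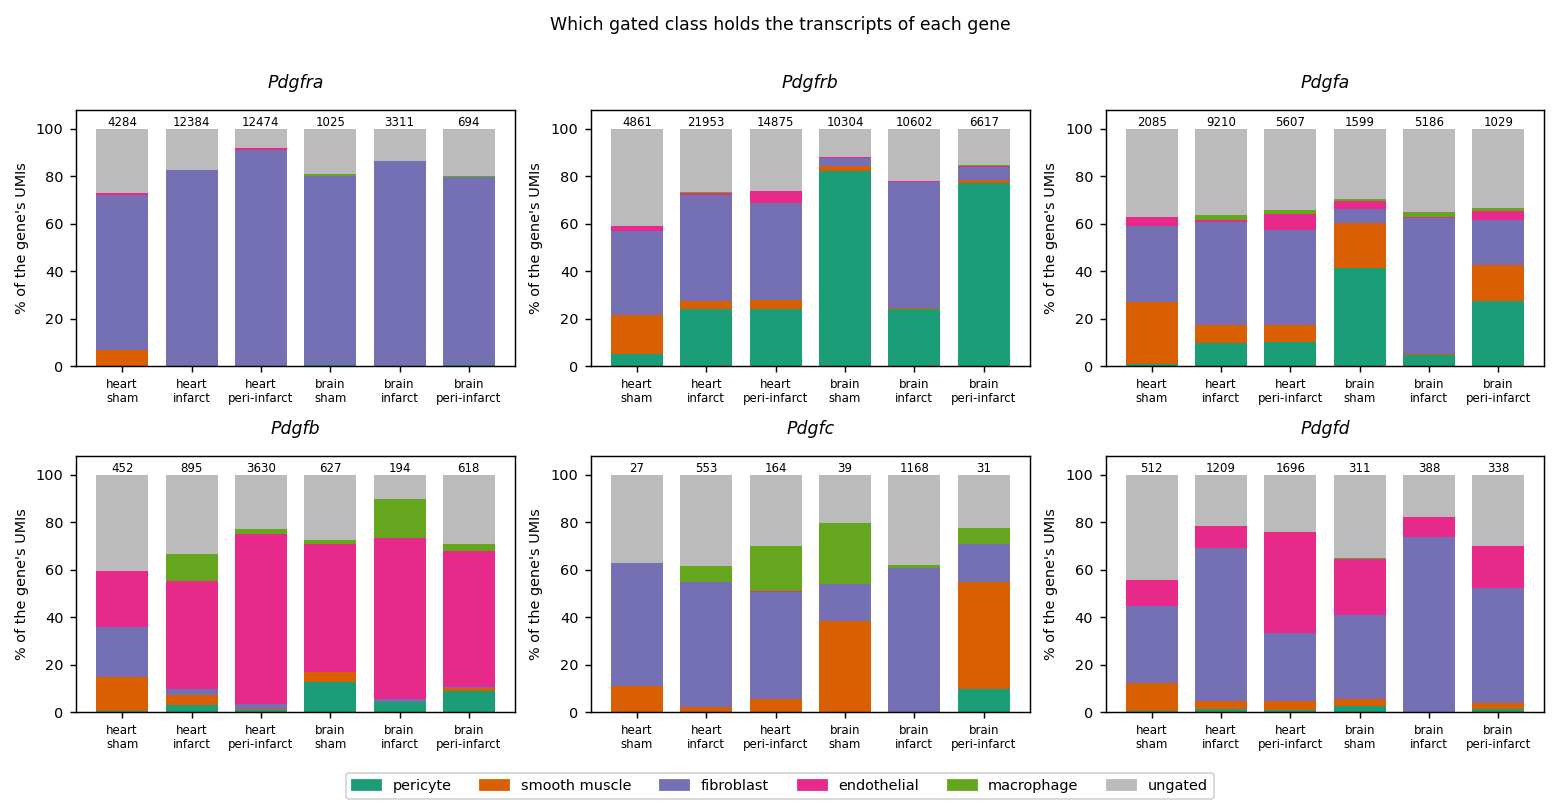
Percentage of each gene's UMIs that lay in each gated class and in ungated cells, per library, with the gene's UMI count in that library above the bar. Fibroblasts held 65.3% to 90.9% of Pdgfra UMIs in all 6 libraries, whereas the class holding most Pdgfrb UMIs was the pericyte in brain sham and brain peri-infarct and the fibroblast elsewhere, apart from the ungated cells of heart sham.

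Pdgfra, the receptor for PDGF-A and PDGF-C, was found mainly in fibroblasts. Its fibroblast level was 265 CPM in heart sham, 143 CPM in heart infarct and 204 CPM in heart peri-infarct, and 367, 90.0 and 142 CPM in the brain libraries. The sham library was the highest and the infarct library the lowest in each organ, and only heart infarct and brain peri-infarct had overlapping intervals among neighbours in that order. Pericytes of the other libraries than heart sham held 1 to 5 Pdgfra UMIs, or 0.718 to 1.35 CPM. Heart sham pericytes held 11 UMIs, 49.3 CPM, beside 74.9 CPM in smooth muscle and 28.7 CPM in endothelial cells of that library, where the same 3 classes carried 2708, 3918 and 2468 CPM of fibroblast markers, whose part in the value was not tested. Pdgfra was thus at least 2-fold higher in fibroblasts than in pericytes in the 5 libraries in which it passed the filter of a mean of 50 CPM, by log2 2.40 in heart sham and 6.06 to 7.60 in the other 4. Brain infarct had a mean under that filter, with 90.0 CPM in fibroblasts and 0.718 CPM (1 UMI) in pericytes.

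Cells deep enough to be thinned to 5000 UMIs allowed both receptors to be looked for in the same cell. Among such heart fibroblasts both were detected in 21.5% of 121 sham cells, 21.7% of 5130 infarct cells and 22.1% of 4236 peri-infarct cells. These shares lay near the 24.8%, 21.8% and 22.3% given by multiplying the shares of the 2 genes. In brain fibroblasts both were detected in 23.1% of 182 sham cells, 16.9% of 951 infarct cells and 6.80% of 294 peri-infarct cells, above the products of 13.5%, 14.3% and 5.09%. The brain gate mixed cells low in arachnoid markers with cells high in them, which held less of both receptors, as given below. The part of this mixture in the brain shares was not tested. Among pericytes both were detected in 2 of 266 heart infarct cells, 0 of 252 heart peri-infarct cells, 2 of 125 brain sham cells and 0 of 53 brain infarct cells. At this depth Pdgfrb without Pdgfra was found in 258, 250, 122 and 53 of these pericytes.

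Heart fibroblasts held less Pdgfra after injury, but by less than 2-fold. The log2 ratio to sham was -0.89 in infarct (fold interval 0.517 to 0.563) and -0.38 in peri-infarct (0.736 to 0.8), and infarct lay below peri-infarct by log2 -0.51. Over all tested genes 12.3% changed at least 2-fold in infarct fibroblasts and 5.97% in peri-infarct fibroblasts, and 0 of the 3 tested PDGF genes did. Within each injury library, cells with a UMI of Cthrc1, a collagen-associated protein of activated fibroblasts, held less Pdgfra than cells without, 131 against 217 CPM in infarct and 153 against 235 CPM in peri-infarct. The same held for Acta2, which encodes smooth muscle actin, with 124 against 184 CPM in infarct and 166 against 243 CPM in peri-infarct. Cells with an Acta2 UMI were deeper, with medians of 13689 against 9924 UMIs in infarct, and the part of depth was not tested. A Cthrc1 UMI was seen in 57 of 5912 heart fibroblasts after sham surgery, in 4320 of 5406 from the infarct and in 1198 of 4688 around it. These cells were not thinned, and their median depths were 1498, 11897.5 and 10094.5 UMIs, whose part in the counts was not tested. Pdgfrb went the other way over the Acta2 division, at 144 against 125 CPM in infarct and 115 against 101.3 CPM in peri-infarct.

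In brain fibroblasts Pdgfra was the only receptor, of those that passed the filter in any class, beyond 2-fold between injury and sham by class sums. Its log2 ratio was -2.01 in infarct (fold interval 0.227 to 0.266) and -1.36 in peri-infarct (0.347 to 0.432). At least 2-fold changes were seen in 35.1% of all genes tested in brain infarct fibroblasts (22.8% lower, 12.2% higher), and in 6.95% in peri-infarct (5.65% lower). With edgeR's TMM scaling in place of totals the median over all genes tested in brain infarct fibroblasts moved from -0.12 to 0.63, and the Pdgfra ratio from -2.01 to -1.34 in infarct and from -1.36 to -1.11 in peri-infarct. Of the genes past 2-fold, 34.9% were higher in infarct with totals and 79.2% with TMM, and 18.7% and 58.6% in peri-infarct.

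The brain fibroblast gate held cells high and low in arachnoid markers (Slc47a1, Cldn11, Cdh1 and Crabp2, which mark the meningeal barrier layer), and Pdgfra differed sharply between them. Cells low in these markers numbered 166, 721 and 125, and held 956, 102 and 684 CPM of Pdgfra. Cells high in them numbered 135, 261 and 273, and held 31.7, 46.2 and 25.1 CPM. Among the low cells infarct was below sham by log2 -3.21 (fold interval 0.0988 to 0.116), and peri-infarct was at log2 -0.48 (0.636 to 0.803), not past 2-fold. Among all genes tested in the low cells, infarct had 48.2% at least 2-fold from sham, and peri-infarct 12.9%. The peri-infarct call was also lost when cells were weighted equally by the mean of per-cell CPM (-0.80) and when barcodes shared with another library were left out (-0.92), and the infarct call was kept in all alternatives tried, from -3.21 to -1.34.

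Pdgfrb followed the same division in the brain. Low cells held 337, 202 and 218 CPM, and high cells 52.1, 91.6 and 69.0 CPM. Over the whole gate it was 155, 178 and 95.5 CPM, so the infarct library lay above sham by log2 0.20 over all gated cells and below it by log2 -0.73 among the low cells. Acta2 was used to divide all infarct fibroblasts, those high and low in arachnoid markers together. Of these, 693 cells with an Acta2 UMI held 65.9 CPM of Pdgfra and 289 cells without held 193 CPM, at median depths of 35711 and 21457 UMIs. Pdgfrb was 182 and 162 CPM in the same cells.

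**Figure D3:**
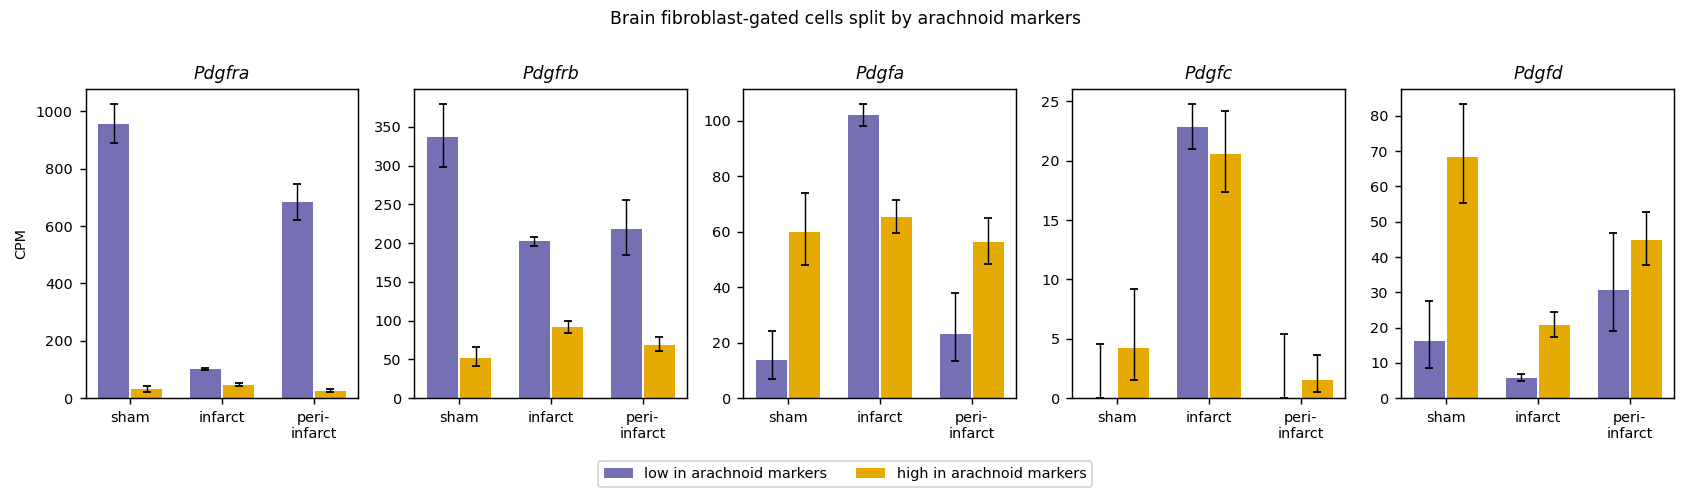
Level (CPM, linear axes from 0) of 5 PDGF genes in fibroblast-gated brain cells low and high in arachnoid markers, with exact 95% Poisson intervals. Pdgfra among the low cells was 956, 102 and 684 CPM from sham to infarct to peri-infarct, and Pdgfa 13.6, 102 and 23.3 CPM.

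Pdgfa, which encodes the ligand of PDGFRα, was highest in the smooth muscle cells of each library that had them, ahead of pericytes. In heart sham and heart peri-infarct, however, the intervals of smooth muscle cells and pericytes overlapped. Smooth muscle cells held 148, 312 and 195 CPM in heart sham, infarct and peri-infarct and 416 and 408 CPM in brain sham and peri-infarct. Pericytes held 89.7 CPM (20 UMIs), 209 and 190 CPM in the 3 heart libraries and 150, 172 and 117 CPM in the brain libraries. The brain smooth muscle sums were the highest of the 26 and did not differ from each other beyond counting error, and the intervals of the next 6 sums after heart infarct smooth muscle overlapped in a chain. In the brain, pericytes lay below smooth muscle by log2 -1.47 in sham and -1.79 in peri-infarct, while in the heart the difference stayed under 2-fold in 3 of 3 libraries.

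In heart pericytes Pdgfa was higher after injury, by log2 1.21 in infarct (fold interval 1.5 to 3.83) and 1.08 in peri-infarct (1.36 to 3.5). It was 1 of 2 PDGF genes tested there, where 11.8% and 10.5% of all tested genes changed at least 2-fold. These ratios rest on 20 UMIs in 145 sham cells, and with a gate at double the marker level they were 0.47 and 0.48. Infarct and peri-infarct pericytes differed from each other by log2 0.13 (fold interval 0.986 to 1.22). In heart smooth muscle cells Pdgfa was higher by log2 1.07 in infarct (fold interval 1.89 to 2.37), where 12.6% of tested genes changed 2-fold, and by 0.40 in peri-infarct, where 8.17% did. The infarct value was 0.94 with the stricter gate and 0.97 as a mean of per-cell CPM, just under the threshold, and infarct exceeded peri-infarct by log2 0.68. In brain pericytes 0 of 2 tested PDGF genes changed 2-fold in either injury library, against 5.96% of all tested genes in infarct and 0.73% in peri-infarct, and Pdgfa was at log2 0.19 and -0.35. In brain smooth muscle peri-infarct differed from sham by log2 -0.03, with 3.39% of tested genes past 2-fold.

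Pericytes with an Acta2 UMI held more Pdgfa than those without in 5 of 6 libraries. Pericytes without one held 113, 112 and 114 CPM in the heart libraries and 117, 116 and 93.7 CPM in the brain libraries, values whose intervals all overlapped. Pericytes with one held 246 CPM in heart infarct, 213 CPM in heart peri-infarct and 408, 524 and 420 CPM in the brain libraries, the value of 524 CPM coming from 27 cells. Heart sham was the exception with 68.5 CPM from 8 UMIs in 87 cells. The share of pericytes with an Acta2 UMI was 87 of 145 in heart sham, 566 of 908 in heart infarct and 337 of 522 in heart peri-infarct, but 134 of 1437 in brain sham, 27 of 407 in brain infarct and 58 of 1039 in brain peri-infarct. These shares are without thinning, at median depths of 1213, 3919.5 and 4840 UMIs in the heart and 2749, 2942 and 2047 in the brain. Cells with an Acta2 UMI were deeper in 5 of 6 libraries, for example 4452.5 against 3348 UMIs at the median in heart infarct, and the part of depth or of smooth muscle cells inside the gate was not tested. Pdgfrb was lower in the pericytes with an Acta2 UMI, at 1123 against 1493 CPM in heart infarct and 1080 against 1623 CPM in heart peri-infarct, and by less in the brain, at 1704 against 1934 CPM in sham.

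**Figure D4:**
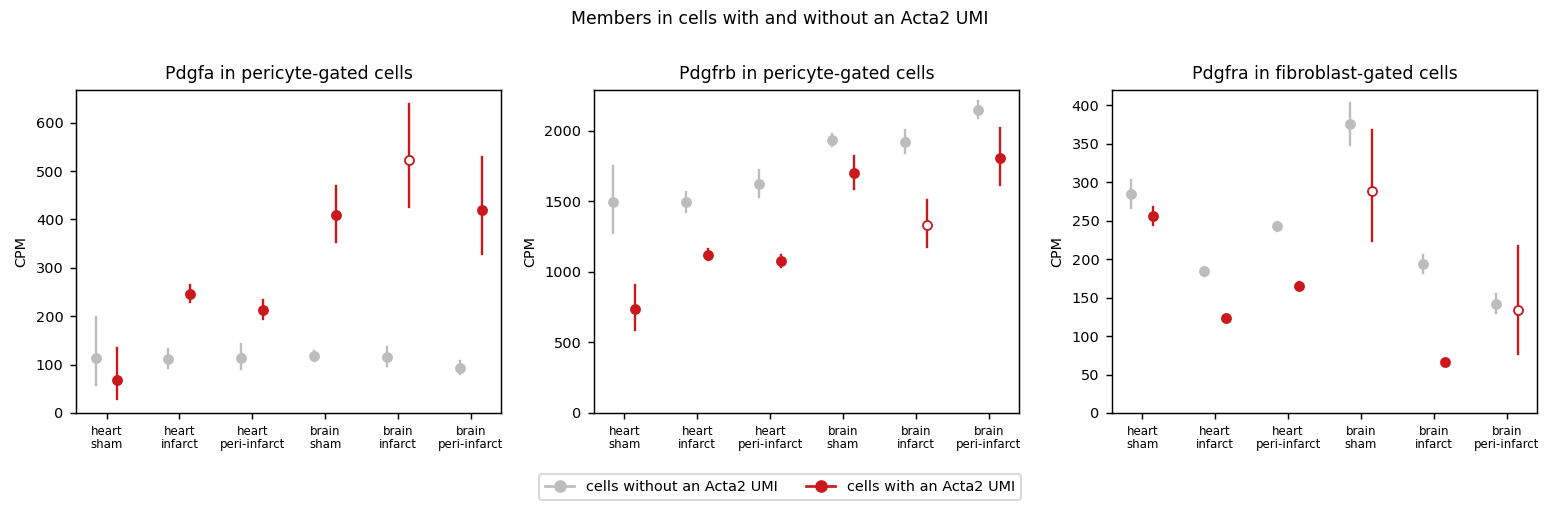
Pdgfa and Pdgfrb in pericyte-gated cells and Pdgfra in fibroblast-gated cells (CPM, linear axes from 0) with and without an Acta2 UMI, with exact 95% Poisson intervals; open points are groups of fewer than 50 cells. Pdgfa without an Acta2 UMI stayed between 93.7 and 117 CPM in all 6 libraries, and reached 213 to 524 CPM with one in all but heart sham.

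Fibroblasts held less Pdgfa than pericytes of the same library, at 63.2, 56.0 and 40.3 CPM in the heart libraries and 43.1, 93.9 and 50.3 CPM in the brain libraries. In heart sham, however, the intervals overlapped, at 58.5 to 68.2 CPM in fibroblasts and 54.8 to 138 CPM in pericytes. The difference was under 2-fold in heart sham and brain infarct. Brain infarct was the highest of the 6 fibroblast sums. It was above sham by log2 1.11 (fold interval 1.78 to 2.70), or 0.97 with a pseudocount of 10 CPM, 1.77 with TMM, 2.12 with the stricter gate and 2.87 with the heart gate minimums. Among the cells low in arachnoid markers Pdgfa was 13.6 CPM (11 UMIs), 102 and 23.3 CPM, so infarct was above sham by log2 2.82 (fold interval 4.18 to 15). In the high cells it was 59.9, 65.3 and 56.2 CPM. In the low cells Pdgfra was thus lower and Pdgfa higher in infarct than in sham. Over the whole fibroblast gate of brain infarct, Pdgfa was 102 CPM in cells with an Acta2 UMI against 59.4 CPM in cells without. Endothelial cells held 37.9 to 75.5 CPM of Pdgfa, with heart peri-infarct below heart sham by log2 -0.97 (fold interval 0.395 to 0.644), and macrophages 39.3 to 82.8 CPM.

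Pdgfb, the ligand by which endothelium recruits pericytes, was highest in endothelial cells in each library. It was 96.1 CPM in heart sham, 259 CPM in heart infarct and 265 CPM in heart peri-infarct, and 322, 211 and 361 CPM in the brain libraries. Heart sham was the lowest of the 6, and the 2 injured heart libraries did not differ from each other beyond counting error. Pericytes held 5.74 to 22.5 CPM, smooth muscle cells 11.8 to 33.1 CPM and fibroblasts 0.0947 to 9.0 CPM. Macrophages, a further known source of PDGF-B, held 47.9 and 41.4 CPM in heart infarct and peri-infarct and 13.2 CPM in brain infarct. Endothelial cells exceeded pericytes at least 2-fold in 6 of 6 libraries, by log2 2.75 in heart sham, where pericytes held 3 UMIs, and 3.94 to 5.2 elsewhere. Between endothelial cells and pericytes 25%, 24.1% and 24.5% of all tested genes differed 2-fold in the heart libraries and 31.1%, 33% and 32.5% in the brain libraries.

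Heart endothelial Pdgfb was higher after injury, by log2 1.42 in infarct (fold interval 2.17 to 3.36) and 1.45 in peri-infarct (2.27 to 3.37). It was 1 of 4 PDGF genes tested, where 9.13% and 9.9% of all tested genes changed at least 2-fold, and over the alternatives its ratio stayed between 1.01 and 1.65. At 1000 UMIs per cell a Pdgfb UMI was found in 13% of 300 sham cells, 23.9% of 234 infarct cells and 23.5% of 1118 peri-infarct cells, and in 0.912%, 0% and 0.128% of fibroblasts of those libraries. The exact upper limit for 0 of 5401 infarct fibroblasts at that depth was 0.0683%, and without thinning 18 of 5406 had a Pdgfb UMI. The 15 endothelial markers moved the same way, summing to 20093, 27923 and 32072 CPM, and fibroblast markers in these endothelial cells the other way, at 2468, 576 and 640 CPM. With an estimate of free RNA subtracted the Pdgfb ratios were 1.26 and 1.28, and the part of the other markers was not tested. In the brain, endothelial Pdgfb was lower than sham in infarct by log2 -0.61 (fold interval 0.531 to 0.803) and close to sham in peri-infarct at 0.16 (0.962 to 1.3). There 0 of 3 and 0 of 2 tested PDGF genes changed 2-fold in infarct and peri-infarct, against 9.17% and 1.76% of all tested genes. Brain endothelial cells also carried haemoglobin transcripts, summing to 7572, 20230 and 4758 CPM, whose part in these values was not tested.

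Within the pericyte gate of brain sham and brain peri-infarct, Pdgfb followed Acta2 as well. Cells with an Acta2 UMI held 62.7 CPM in sham (31 UMIs) and 99.3 CPM in peri-infarct (17 UMIs), against 12.7 and 16.6 CPM in cells without. In the heart the same division gave 7.07 and 3.35 CPM in infarct and 9.26 and 8.68 CPM in peri-infarct, within counting error of each other.

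Pdgfc, one of the ligands secreted in latent form, did not pass the filter of a mean of 50 CPM in any injury comparison, so its values are given without a call. Pericytes held 0 UMIs in 5 of 6 libraries and 3 UMIs in brain peri-infarct, and endothelial cells 0 UMIs in 5 of 6 libraries and 1 UMI in heart peri-infarct. In brain pericytes of the sham library 0 UMIs had an exact Poisson upper limit of 0.832 CPM. Its highest sums were in brain smooth muscle, at 20.7 CPM (15 UMIs) in sham and 36.6 CPM (14 UMIs) in peri-infarct, in brain infarct fibroblasts at 22.3 CPM (707 UMIs) and in macrophages, at 18.2 and 18.9 CPM in heart infarct and peri-infarct and 7.45 CPM in brain infarct. Brain infarct fibroblasts stood above those of sham (2.69 CPM, 6 UMIs, fold interval 3.79 to 22.7) and peri-infarct (1.29 CPM, 5 UMIs). Heart infarct fibroblasts, at 4.06 CPM, likewise stood above sham and peri-infarct, both at 1.33 CPM. Within brain infarct, Pdgfc was 22.8 CPM in fibroblasts low in arachnoid markers and 20.6 CPM in those high in them, and 25.5 CPM in cells with an Acta2 UMI against 8.51 CPM in cells without.

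Pdgfd, the other latent ligand and one that binds PDGFRβ, was highest in endothelial cells in each library. In the brain fibroblasts came next, with intervals that overlapped those of endothelial cells in sham and peri-infarct. In the heart smooth muscle cells came next, at 16.2, 19.9 and 30.6 CPM, with an interval that overlapped that of fibroblasts in sham. Endothelial cells held 51.2, 70.7 and 73.8 CPM in the heart and 70.6, 53.1 and 61.3 CPM in the brain. No endothelial library differed 2-fold from its sham, with log2 ratios of 0.46 and 0.52 in the heart and -0.40 and -0.20 in the brain. Heart fibroblasts held 15.8, 10.9 and 8.67 CPM and brain fibroblasts 49.4, 9.0 and 42.3 CPM, with brain infarct the outlying value of its organ. Brain fibroblasts high in arachnoid markers held 68.3 CPM of Pdgfd in sham and 20.7 CPM in infarct (fold interval 0.233 to 0.396), and those low in them 16.1 and 5.70 CPM (0.201 to 0.682), so infarct was below sham in both subsets. Smooth muscle cells held 12.4 to 30.6 CPM, pericytes 0 to 13.5 CPM and macrophages 0 to 1.91 CPM.

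**Figure D5:**
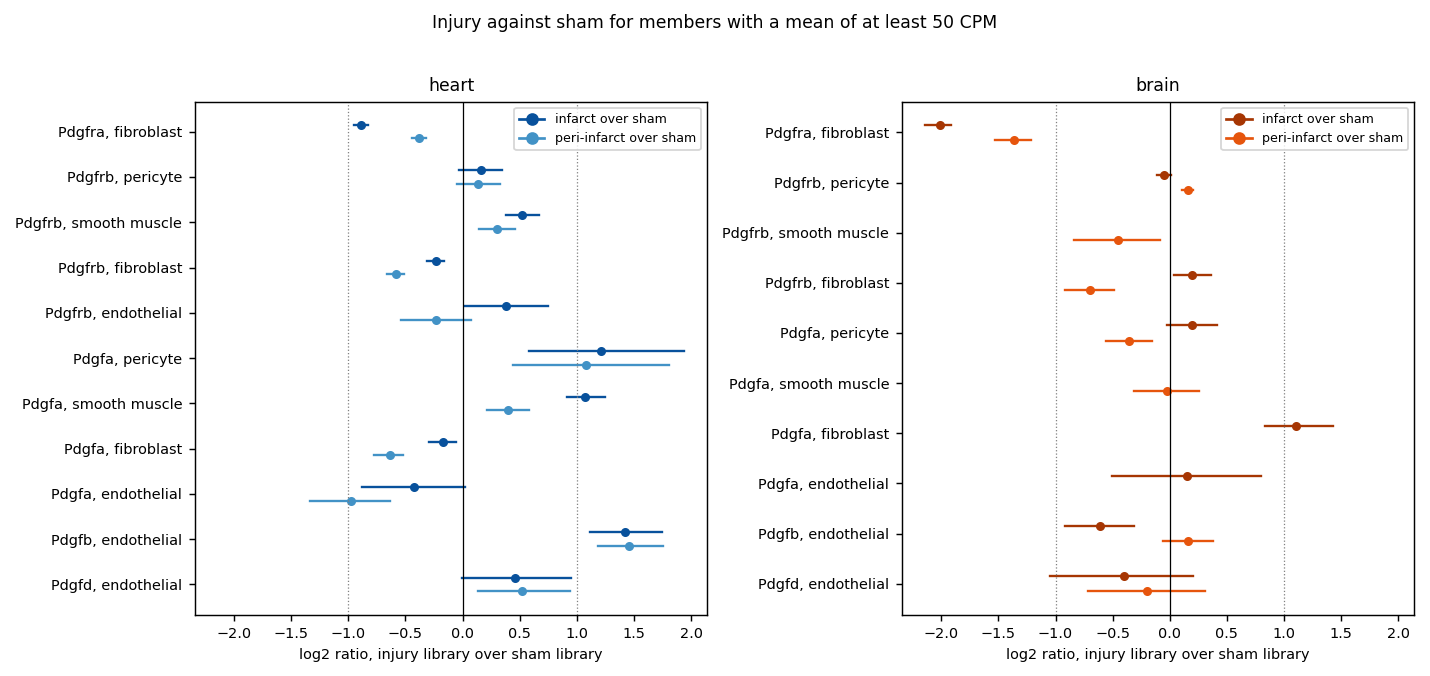
Log2 ratio of injury to sham library, by class, for each PDGF gene whose mean reached 50 CPM; points are ratios of CPM plus 1, lines 95% counting intervals of the raw ratio, dotted lines 2-fold. Pdgfrb in pericytes lay between -0.05 and 0.16, Pdgfb in heart endothelial cells at 1.42 and 1.45, and Pdgfra in brain fibroblasts at -2.01 and -1.36.

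Setting the injury libraries against each other, 0 tested PDGF genes differed 2-fold between infarct and peri-infarct in a class sum of either organ. The share of all tested genes that did was 0.56% in heart pericytes, 2.66% in heart smooth muscle, 2.48% in heart fibroblasts, 0.709% in heart endothelial cells and 2.32% in heart macrophages. In the brain it was 3.89% in pericytes, 24.9% in fibroblasts and 4.89% in endothelial cells. Of the tested PDGF ratios, those nearest to 2-fold were Pdgfrb and Pdgfa in brain fibroblasts, both at log2 0.89. Both passed it in some alternatives, as did Pdgfra in brain fibroblasts, at -0.65 by class sums. Among brain fibroblasts low in arachnoid markers Pdgfra was at log2 -2.73 and Pdgfa at 2.09. Over the whole gate Pdgfra was at -1.42 as a mean of per-cell CPM and -1.28 without shared barcodes, Pdgfa at 1.58 with the stricter gate and 1.24 with TMM, and Pdgfrb at 1.24 with TMM and 1.10 with free RNA subtracted.

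Between organs, within a class and condition, 2 ligands and 1 receptor passed 2-fold by class sums with each organ's own gates. Pdgfa was lower in heart than in brain smooth muscle, by log2 -1.48 in sham and -1.06 in peri-infarct, where 17.5% and 19.3% of all tested genes differed 2-fold. Pdgfb was lower in heart than in brain endothelial cells by log2 -1.73 in sham, where 24.2% of tested genes differed 2-fold, but at 0.29 in infarct and -0.44 in peri-infarct. Pdgfrb in endothelial cells was higher in the heart by log2 1.52 in infarct, 1.28 in peri-infarct and 0.79 in sham. In infarct and peri-infarct 20.3% and 24.1% of tested genes differed 2-fold. By class sums the heart held 89.8, 117 and 76.1 CPM, and as a mean of per-cell CPM 147, 68.4 and 49.5. Endothelial cells of both organs also carried pericyte markers, whose part was not tested. The markers summed to 2788 CPM in heart infarct and 1662 CPM in brain infarct, and to 2231 and 2431 CPM in the sham libraries. Their median per 10000 UMIs in peri-infarct was 11.5 in the heart and 20.1 in the brain. Macrophage Pdgfa was 82.8 CPM in heart infarct and 39.3 CPM in brain infarct, log2 1.06, where 20.7% of tested genes differed 2-fold. Fibroblast Pdgfra did not pass, at 265, 143 and 204 CPM in the heart and 367, 90.0 and 142 CPM in the brain. The fibroblast gate, however, had a minimum of 100 per 10000 UMIs in the heart and 30 in the brain. With the heart minimums in both organs, brain Pdgfra was 938 CPM in sham (52 cells) and 318 CPM in infarct (122 cells). Brain fibroblasts low in arachnoid markers held 956, 102 and 684 CPM. Organ cannot be told apart from dissociation, which used a collagenase and dispase mix in the heart and a commercial brain kit in the brain.

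Other genes of the pathway were read from 5 lists of 56 genes. The adapters and effectors that bind the active receptors (19 genes, among them Grb2, Pik3r1, Plcg1 and Stat3) had list medians near those of all tested genes in heart infarct. The medians were 0.11, 0.11, 0.03 and 0.09 in pericytes, smooth muscle cells, fibroblasts and endothelial cells, against -0.01, 0.13, 0.02 and 0.06. In these classes 0 of 8, 0 of 6, 0 of 8 and 0 of 11 genes tested changed 2-fold, against 11.8%, 12.6%, 12.3% and 9.13% of all tested genes. In brain infarct 0 of 14 pericyte and 0 of 5 fibroblast genes did, against 5.96% and 35.1% of all tested genes. Of 11 endothelial genes there 1 was lower, Sos1, an exchange factor for Ras, at log2 -1.04, where 9.17% of all tested genes changed 2-fold. Counts this small cannot set the list apart from those shares.

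Among extracellular binding partners and co-receptors (7 genes), Sparc, a matrix protein that binds PDGF-B, was higher in infarct than in sham in each of the 4 heart classes compared. It was 6022 against 2986 CPM in pericytes, 3248 against 1020 CPM in smooth muscle, 4751 against 1414 CPM in endothelial cells and log2 2.51 higher in fibroblasts. Higher members of the list were 2 of 6 tested in pericytes (with Thbs1, log2 1.76), 1 of 5 in smooth muscle, 3 of 6 in fibroblasts (with Ext1 and Hspg2) and 2 of 6 in endothelial cells (with Hspg2, the heparan sulphate proteoglycan perlecan, 1.58), where 11.8%, 12.6%, 12.3% and 9.13% of all tested genes changed 2-fold. The list medians were 0.40, 0.50, 0.67 and 0.60 in these classes, against -0.01, 0.13, 0.02 and 0.06 over all tested genes. Thbs1 was lower in heart infarct endothelial cells by log2 -1.48. In brain infarct Sparc was higher 2-fold in fibroblasts (log2 1.45), where Thbs1 and the endocytic receptor Lrp1 were lower (-2.40 and -1.30), and 0 of 4 genes tested passed 2-fold in pericytes, against 35.1% and 5.96% of all tested genes. The list medians there were -0.15 and 0.52, against -0.12 and -0.07 over all tested genes.

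Among genes that attenuate receptor signalling (15 genes), Spry2, an inhibitor of the Ras pathway, was lower 2-fold in heart infarct pericytes (43.5 against 157 CPM), smooth muscle cells (15.4 against 88.1 CPM) and fibroblasts (25.9 against 145 CPM), and in brain infarct pericytes (106 against 238 CPM). It was 1 of 2 lower genes of 9 tested in heart infarct pericytes and the sole one of 6 in smooth muscle, 7 in fibroblasts and 11 in brain infarct pericytes, where 11.8%, 12.6%, 12.3% and 5.96% of all tested genes changed 2-fold. The list medians were -0.29, 0.30, -0.17 and -0.12, against -0.01, 0.13, 0.02 and -0.07 over all tested genes. In brain fibroblasts Spry1 was lower by log2 -1.69 in infarct and -1.85 in peri-infarct. Of the genes that process latent ligands, Plat, which encodes the tissue plasminogen activator that cleaves PDGF-C, was within 2-fold of sham in the heart and brain pericytes, fibroblasts and endothelial cells, with log2 ratios from -0.86 in heart infarct endothelial cells to 0.50 in brain infarct pericytes. Pcsk5, a proprotein convertase, was lower in heart endothelial cells by log2 -1.56 in infarct and -2.36 in peri-infarct, the sole one of 3 genes tested there in each, against 9.13% and 9.9% of all tested genes.

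The early growth factor response list (8 genes, among them the transcription factors Fos, Egr1 and Jun) was higher in the pericytes of brain infarct and lower in those of both peri-infarct libraries. In brain infarct pericytes 4 of 4 genes tested were higher, with a list median of log2 1.47 against -0.07 over all tested genes, and Fos at 3950 against 1177 CPM, where 5.96% of all tested genes changed 2-fold. In brain peri-infarct pericytes 3 of 4 were lower, with a median of -1.50 against -0.01, and Fos at 363 CPM, where 0.73% of all tested genes changed. Heart pericytes had 0 of 5 past 2-fold in infarct (median -0.67 against -0.01) and 4 of 5 lower in peri-infarct (median -1.54 against 0.04), with Fos at 3614, 1924 and 916 CPM in sham, infarct and peri-infarct, against 11.8% and 10.5% of all tested genes. Heart infarct endothelial cells had 3 of 5 lower, among them Fos (log2 -1.97), and 1 higher, Ccnd1, which encodes a cyclin that drives entry into the cell cycle (1.02), against 9.13% of all tested genes. These genes are also known to respond to tissue dissociation, whose part was not tested.

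The genes whose levels over the 26 class sums were most alike to each PDGF gene were found by Pearson's r of log2(CPM plus 10), as a description of sums that share libraries and cells. For Pdgfra they were Igfbp6 (r = 0.963), Krt19 (0.948) and Sema3d (0.945). For Pdgfrb they were Arhgef17 (0.961), Dtx3 (0.955) and Abi2 (0.951), all highest in brain pericytes. For Pdgfa they were Kcnk3 (0.911), Uba2 (0.893) and Kcnmb1 (0.892), the last being the beta subunit of a potassium channel of smooth muscle. For Pdgfb they were Exoc6 (0.951), Prkch (0.944) and Cmtm8 (0.941), all highest in brain endothelial cells, and for Pdgfd Arl4d (0.901), Ndrg1 (0.888) and Id1 (0.859), likewise. For Pdgfc, with its low counts, they were Tuba1c (0.812), Haus8 (0.790) and Pfn1 (0.758).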

How the data were processed

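The values used are the authors' deposited UMI counts (unnormalized, for each gene in each barcode). The submitters' processing notes name Cell Ranger 3.0.2, mm10 and Seurat 3, and per the labels the chemistry was 10x 3' version 3. Counting settings were not given in the sources used here. Gene positions come from GENCODE vM21.

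Cells with at least 500 genes and at most 10% mitochondrial UMIs were kept. A cell entered a class when the class's markers reached a minimum per 10000 UMIs (heart: 100 for pericytes, fibroblasts, endothelial cells and macrophages, 50 for smooth muscle; brain: 100 pericyte, 50 smooth muscle, 30 fibroblast, 75 endothelial, 100 macrophage), every other class stayed under its own, and the score relative to that minimum was at least 2 times any other. The minimums were set after the distributions were seen. Doublets were treated only by leaving out cells over more than 1 gate. Markers of the gates and the arachnoid and other lists, like the members and pathway lists, were chosen with earlier results of these data known. Cells high in arachnoid markers had at least 5 UMIs of them per 10000.

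Counts were summed per class and library and scaled to CPM, with exact Poisson intervals. Ratios are of CPM plus 1, intervals of the raw fold are exact conditional binomial, and shares have exact Clopper-Pearson intervals; all cover counting error only and assume independent UMIs. A gene was tested at a mean of at least 50 CPM and called at 2-fold; no p-value can be given. Classes under 50 cells gave no ratio. Free RNA was estimated, not measured. Its profile was taken as that of all kept cells of a library. Its share was set by the fibroblast markers in endothelial cells of that library, at 17.1% in heart sham and 2.57% to 4.03% in the others. That share was subtracted from every class. Named pathway genes are up to 4 tested genes per list and comparison with the largest absolute ratio, and the 3 most alike genes per member exclude gate markers, ribosomal, mitochondrial, predicted and haemoglobin genes and need a highest level of 50 CPM; Spry2, Sparc and Plat are followed across classes after their values were seen. 1 gene of the list on latent ligands is not reported here. Divisions by Acta2, Cthrc1 and arachnoid markers were added after the data were seen. Ratios, 2-fold calls and the intervals of ratios were tested on simulated counts, and the gates were not. Python 3.11.15 with numpy 2.4.6, scipy 1.17.1, pandas 2.3.3 and matplotlib 3.10.9, and R 4.3.3 with edgeR 4.0.16 (TMM factors only) were used.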

Additional observations from a re-analysis of the deposited data

Results flagged for a closer look

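In 6 comparisons the heart and brain libraries of a class moved in opposite directions with counting intervals on opposite sides of no change. With 1 library per group the differences themselves were not tested. In smooth muscle cells Pdgfrb was at log2 0.30 in heart peri-infarct and -0.45 in brain peri-infarct, each against its sham. In fibroblasts Pdgfrb was at -0.24 in heart infarct and 0.20 in brain infarct, where the brain value was -0.73 once cells high in arachnoid markers were left out. In pericytes Pdgfa was at 1.08 in heart peri-infarct, or 0.48 with the stricter gate, and -0.35 in brain peri-infarct. In fibroblasts Pdgfa was at -0.17 in heart infarct and 1.11 in brain infarct. In endothelial cells Pdgfb was at 1.42 in heart infarct and -0.61 in brain infarct. Between infarct and peri-infarct fibroblasts Pdgfd was at 0.30 in the heart and -2.12 in the brain, both under the filter of a mean of 50 CPM.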

How the results depend on the processing

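Ratios of the PDGF genes to sham were recomputed under 15 settings, 5 of them added after the data were seen (the heart gate minimums in both organs, a pericyte gate without Rgs5, no cells high in arachnoid or in mesothelial markers, no barcodes shared between libraries). Over all 1320 such values 1285 kept their status as called or not, 27 gained a call, 8 lost it and 0 called values changed sign. A gene under the filter of a mean of 50 CPM cannot be called and so counts as kept, which makes the 1285 no measure of stability. Of the 27, 20 came with no filter on low values, a setting that leaves the ratio itself unchanged. The other 7, whose ratios moved past 2-fold, were Pdgfa in heart peri-infarct endothelial cells (-1.03 without the cells of highest UMI count, -1.37 as a mean of per-cell CPM), Pdgfd there (1.02, stricter gate), Pdgfrb there (-1.27 and -1.55 by the same pair of settings as Pdgfa), Pdgfrb in heart infarct endothelial cells (-1.10 as a mean of per-cell CPM, against 0.38) and Pdgfrb in brain infarct endothelial cells (-1.06, pericyte gate without Rgs5). With the stricter gate Pdgfa was at log2 0.47 in heart infarct pericytes, 0.48 in heart peri-infarct pericytes and 0.94 in heart infarct smooth muscle. As a mean of per-cell CPM, Pdgfa in heart infarct smooth muscle was at 0.97 and Pdgfra in brain peri-infarct fibroblasts at -0.80. The latter was at -0.48 without cells high in arachnoid markers and -0.92 without shared barcodes. Pdgfa in brain infarct fibroblasts was at 0.97 with a pseudocount of 10 CPM. The causes were not tested. Among values under 2-fold, Pdgfrb in brain infarct fibroblasts ranged from -0.73 to 0.87 and Pdgfrb in heart infarct pericytes from -0.13 to 0.60. No paired analysis was possible because each group has 1 library. The heart sham library had a median of 1408 UMIs per cell, and its 145 pericytes held 20 Pdgfa UMIs. Scaling by TMM factors moved the share of higher genes among those past 2-fold from 51% to 72.6% in heart infarct pericytes, 48% to 64.2% in heart peri-infarct pericytes, 55.4% to 65.5% in heart infarct fibroblasts, 49.6% to 39% in heart peri-infarct smooth muscle, 32.9% to 63.7% in brain infarct endothelial cells, 26.3% to 39.1% in brain peri-infarct smooth muscle and 19.4% to 40.7% in brain peri-infarct endothelial cells. It moved the median of all tested genes from -0.01 to 0.17 in heart infarct pericytes, 0.04 to 0.17 in heart peri-infarct pericytes, 0.02 to 0.16 in heart infarct fibroblasts, -0.21 to -0.01 in brain infarct endothelial cells and -0.08 to 0.03 in brain peri-infarct endothelial cells. The number of genes past 2-fold moved over 1.5 times from 236 to 141 in heart peri-infarct smooth muscle with up to 20% mitochondrial UMIs allowed. It moved from 99 to 180 with the stricter gate and to 64 with a pseudocount of 10 CPM in brain peri-infarct smooth muscle. In brain peri-infarct fibroblasts it moved from 235 to 488 with the stricter gate and to 447 without cells high in arachnoid markers. With no filter on low values it was 603 to 5661 over the 15 injury comparisons, over 1.5 times the filtered count in each.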
